A study of Mus musculus with 62 samples.

Results

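The liver transcriptomes described here come from 14 sham-operated male C57BL/6J mice, 7 fed a diet with 7% of its calories from protein (sham P7) and 7 fed a diet with 21% (sham P21). They were chosen by their diet and surgery labels alone and are 14 of the 57 libraries with counts, from 62 labelled samples. All mice had eaten a Western diet with 42% of calories from fat for 12 weeks from 5 weeks of age, a diet used to induce obesity and glucose intolerance. At 17 weeks of age the sham mice underwent laparotomy, ligation of the short vessels and handling of the stomach under isoflurane, with saline, norocillin and buprenorphine, and ate a recovery gel around surgery. From post-operative day 7 they ate the protein diets, which had natural-sourced protein, 20% of calories from fat and equal calories, so that less protein came with more carbohydrate. Carbohydrate and protein therefore cannot be told apart as the source of any difference. Livers were taken 14 weeks after surgery, when the mice had fasted for 16 h and been refed for 4 h on their own diet. The other groups of the study received sleeve gastrectomy (SG, removal of about 75% of the stomach), a 36% protein diet (P36), continued Western diet (WD, 15.2% protein) or chow. The mice lived in pairs, and which of them shared a cage is not given here, so p-values measure the spread between these libraries.

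Cells meet a shortage of amino acids with the integrated stress response. The kinase GCN2 (Eif2ak4) senses uncharged tRNA and phosphorylates the initiation factor eIF2, which slows general translation and favours translation of the transcription factor ATF4. ATF4 binds C/EBP-ATF response elements (CARE) at genes for amino acid synthesis, uptake and stress control, and in liver these include the hormone Fgf21. The unfolded protein response is a separate arm, in which the ER sensors IRE1 (Ern1), PERK (Eif2ak3) and ATF6 respond to unfolded protein in the endoplasmic reticulum (ER), and ATF6 and XBP1 act through ER stress response elements (ERSE) at chaperone genes.

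The promoters below are shown because 4 of these 5 genes were higher on 7% protein and each holds the CARE letters TGATGNAA, searched on both strands within 250 bases before the RefSeq start. Capitals mark the motif, which reads TTGCATCA where it lies on the other strand, and up to 30 bases are printed on either side, fewer where the window ends. The windows are, on build GRCm38.p6, chr6:7693210-7693262 (minus strand) for Asns, chr1:191183406-191183473 (minus) for Atf3, chr7:126625543-126625610 (minus) for Nupr1, chr7:45615592-45615659 (minus) for Fgf21 and chr2:119351019-119351086 (plus) for Chac1.
Asns: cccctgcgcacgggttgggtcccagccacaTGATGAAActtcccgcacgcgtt
Atf3: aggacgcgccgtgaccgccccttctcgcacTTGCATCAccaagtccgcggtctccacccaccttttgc
Nupr1: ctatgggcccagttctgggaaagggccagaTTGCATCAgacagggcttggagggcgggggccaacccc
Fgf21: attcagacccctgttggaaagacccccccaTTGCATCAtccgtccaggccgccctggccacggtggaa
Chac1: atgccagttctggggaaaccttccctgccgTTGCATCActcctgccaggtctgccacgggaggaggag
The motif lies 23 bases before the start in Asns, 110 in Atf3 and in Nupr1, 139 in Fgf21 and 193 in Chac1. It occurs in 3.91% of the 27025 genes with a promoter sequence. Among the tested genes that matched a promoter it was present in 53 of 1516 genes higher on 7% protein (3.5%), 36 of 1650 lower genes (2.18%) and 211 of 8532 genes that were not called (2.47%). A match describes letters in a window and not binding.

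Sham P7 libraries held 24304226 to 30649044 counts and sham P21 libraries 14026111 to 29686679. Sham P21 libraries 1 and 2 carried an acute phase: the mean log2 CPM (counts scaled to 1000000 per library) of Saa1, Saa2, Lcn2 and Orm2 was 9.56 and 9.81, against 2.97 to 5.12 in the other 5 sham P21 libraries and 2.45 to 4.69 in sham P7. In those libraries 10.5% to 10.8% of counts came from mitochondrially encoded genes, against 6.35% to 7.7% in the other sham P21 libraries and 6.84% to 10.4% in sham P7. Results are therefore given with all libraries. Those without sham P21 libraries 1 and 2 are added where the reported call of a single gene was lost or gained. They are also added where a value or list count moved by over 1.5 times, so smaller changes of list counts are not all given. Sham P7 library 7 also stood apart, with a mean correlation of 0.964 with the rest of its group where the other P7 libraries had 0.975 to 0.981. The first principal component held 37.5% of the variance of the 14 libraries and separated the diets. Among the SG libraries used as a comparison, the library labelled SG P7 replicate 7 went against its diet label, as described with the values of Vmn2r3.

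The diet contrast was broad. Of 16087 tested genes, edgeR's quasi-likelihood test with Benjamini-Hochberg adjustment called 13% higher and 13.4% lower on 7% protein at an adjusted p under 0.05. Without sham P21 libraries 1 and 2 the shares were 12% and 12%, with 1619 genes called higher and 1715 lower in both fits and 0 called in opposite directions. The median log2 fold change over all tested genes was 0.05. All gene lists below were chosen with earlier results of these data known, so their counts and shares are not independent of these data. In the gene lists given below with 0 members rising or falling in the fit of all libraries, the count in that direction was also 0 at an unadjusted p under 0.05 and by DESeq2, except for 1 pericentral marker that was lower by both. All 7 sham P7 libraries lay above all sham P21 libraries for 3.47% of genes and below them for 3.9%.

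The largest change belonged to Vmn2r3 (ENSMUSG00000091572), a member of the vomeronasal receptor family, receptors known from pheromone-sensing neurons. Its raw counts were 1239 to 6686 in the 7 sham P7 libraries, with a median of 4636, whereas 5 of 7 sham P21 libraries had 0 counts and the other two had 1 each. The groups were fully separate. The 29460 counts against 2 gave a depth-scaled ratio of 11020 with an exact 95% interval of 3051 to 91020, which covers counting error only. On the TMM-scaled CPM scale used below, sham P7 libraries ran from 44.3 through a median of 155 to 236. Counts in the remaining sham groups were 1 to 17 on WD, 0 to 1 on P36 and 0 to 9 on chow, and in SG mice 0 to 7 on WD. The SG P7 libraries held 1332 to 4656 counts except the library labelled SG P7 replicate 7, which had 0. That library also had 4.17 CPM of the stress kinase-like gene Trib3 (43.2 to 119 in the other SG P7 libraries, 2.43 to 3.67 in SG P21) and 0.871 CPM of Psat1 (12.6 to 33.3 in the others). SG values are therefore given with and without it.

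**Figure D1:**
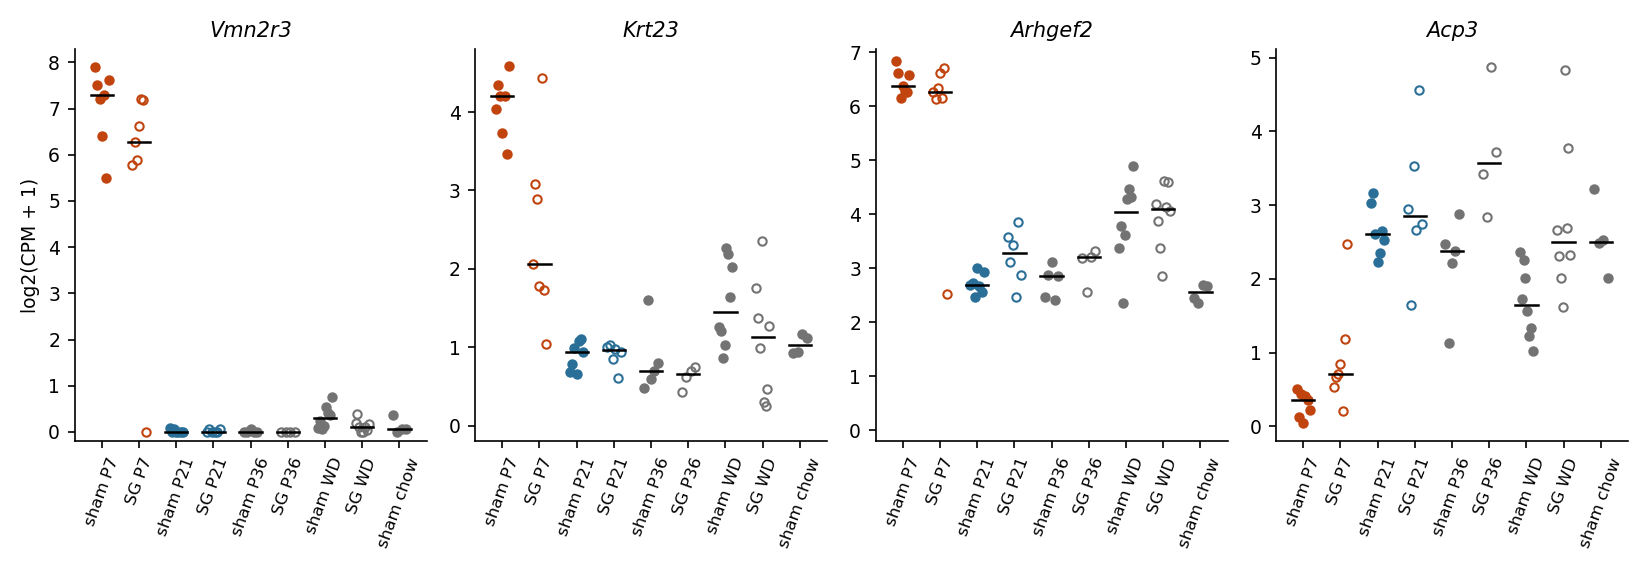
Level of 4 genes in each library of the 9 groups, as log2(CPM + 1) on the vertical axis, with a line at each group's median; filled points are sham and open points SG libraries. Vmn2r3, Krt23 and Arhgef2 are high in the P7 groups and Acp3 is low there, with the library labelled SG P7 replicate 7 lying among the P21 libraries for Vmn2r3 and Arhgef2.

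Other genes with large increases were in none of the amino acid lists. Krt23, a type I keratin, was at 10.01 to 23 CPM in sham P7 (median 17.5) and at 0.572 to 1.15 in sham P21 (median 0.919), an 18.5-fold difference (log2 4.21 ± 0.51 SE, n = 7 and 7, edgeR adjusted p = 2.37e-08). Arhgef2, an exchange factor that activates RhoA, was at 70.1 to 113 CPM against 4.51 to 7 (medians 81.9 and 5.46; log2 3.95 ± 0.36, adjusted p = 5.88e-12). Rap1gap2, which switches off the GTPase Rap1, was at 2.5 to 25.8 CPM against 0.592 to 1.15 (log2 3.99 ± 0.45, adjusted p = 3.85e-09). In all 3 genes every sham P7 library exceeded every sham P21 library. Pde2a (ENSMUSG00000030653), a cyclic nucleotide phosphodiesterase, and the histone gene H2ac19 met the naming rule but rest on few libraries. Pde2a had counts in 2 sham P7 libraries (highest 21.2 CPM) and in no sham P21 library, a second identifier carries the same symbol, and its call was lost without sham P7 library 7 (edgeR adjusted p = 0.0529). H2ac19 had a median of 0 CPM in both groups and 50.2 CPM in sham P7 library 7, without which its adjusted p was 0.0825.

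The steepest decreases included genes outside the ER as well. Acp3, an acid phosphatase, was at 0.0349 to 0.423 CPM in sham P7 and 3.69 to 8 in sham P21 (medians 0.286 and 5.11), 22-fold lower (log2 -4.46 ± 0.62, edgeR adjusted p = 4.57e-07). Tiam2, an exchange factor for the GTPase Rac, fell from a median of 14.2 to 2.55 CPM (log2 -2.19 ± 0.33, adjusted p = 2.01e-06), and Sulf2, an enzyme that trims sulfate from heparan sulfate chains, from 12.7 to 3.28 (log2 -1.92 ± 0.31, adjusted p = 5.37e-06). The groups did not overlap for Acp3, Tiam2, Sulf2, the kinase Dclk3 (log2 -1.97) or the N-acetyltransferase family gene Nat8f7 (log2 -3.14). They overlapped for the lectin-like gene Clec2h, at 0 to 0.322 CPM against 0.3 to 4.64 (log2 -4.34 ± 1.16, adjusted p = 0.00396), and for the glucuronosyltransferase gene Ugt2b38 (log2 -2.62 ± 0.68, adjusted p = 0.00319).

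Of 15 tested sensors and regulators of eIF2 at the head of the integrated stress response, 1 rose and 4 fell. Atf4 mRNA was at 105 to 214 CPM in sham P7 and 111 to 147 in sham P21, and Eif2ak4 at 5.66 to 7.87 against 4.44 to 9.58. Neither passed the test (log2 0.36 ± 0.15, edgeR adjusted p = 0.0657, and -0.16 ± 0.14, adjusted p = 0.407). Ppp1r15a, a phosphatase subunit that reverses eIF2 phosphorylation and is itself an ATF4 target, rose (11.1 to 17.4 CPM against 7.54 to 10, log2 0.69 ± 0.18, adjusted p = 0.00317). The constitutive partner Ppp1r15b fell (log2 -0.32), as did the kinase genes Eif2ak3 (log2 -0.72) and Eif2ak2 (log2 -0.68) and the exchange factor subunit Eif2b5 (log2 -0.33).

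Downstream of ATF4, 12 of 19 tested transcription factors and stress effectors rose and 0 fell, with a median log2 fold change of 1.05. The count was again 12 without sham P21 libraries 1 and 2 and 11 without sham P7 library 7, where Cebpb lost its call (adjusted p = 0.113). In 10 of the 19 all sham P7 libraries lay above all sham P21 libraries, where 3.47% of all tested genes did. Trib3, a pseudokinase that feeds back on ATF4, was at 52.3 CPM in the lowest sham P7 library, 72.8 in the median and 130 in the highest, against 1.84, 3.47 and 6.26 in sham P21 (log2 4.63 ± 0.39, adjusted p = 4.49e-13). Nupr1, a small chromatin-associated stress protein, was at 22.9, 37.4 and 59.5 CPM against 1.15, 1.49 and 3.06 (log2 4.49 ± 0.41, adjusted p = 5.88e-12). Ddit3, which encodes the transcription factor CHOP, was at 39.9, 68.5 and 108 CPM against 6.12, 8.08 and 11.9 (log2 3.04 ± 0.25, adjusted p = 3.88e-13). The lowest sham P7 library of each of these genes held several times the highest sham P21 value.

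Further effectors were also separate between the diets where ranges are given. Atf3, a repressive member of the ATF family, was at 12.7, 25.5 and 53.2 CPM against 1.28, 2.37 and 4.01 (log2 3.66 ± 0.43, adjusted p = 8.87e-09). Atf5, a factor that shares targets with CHOP, was far more abundant and was at 677 to 1153 CPM against 182 to 355 (log2 1.77 ± 0.22, adjusted p = 4.74e-08). Ddit4 and Sesn2, both restraints on the growth kinase complex mTORC1, rose by 2.69 ± 0.38 and 1.58 ± 0.20 on the log2 scale, and Eif4ebp1, which blocks cap-dependent translation, by 0.84 ± 0.17. Soat2, which esterifies cholesterol, had the third lowest adjusted p of the list (89.2 to 176 CPM against 24.9 to 40.2, log2 1.96 ± 0.17, adjusted p = 1.63e-12). Among the 7 members that were not called, the glutathione-degrading enzyme Chac1 had a log2 difference of 1.27 ± 0.59 (adjusted p = 0.104) and Herpud1, an ER membrane protein, one of -0.03 ± 0.22.

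**Figure D2:**
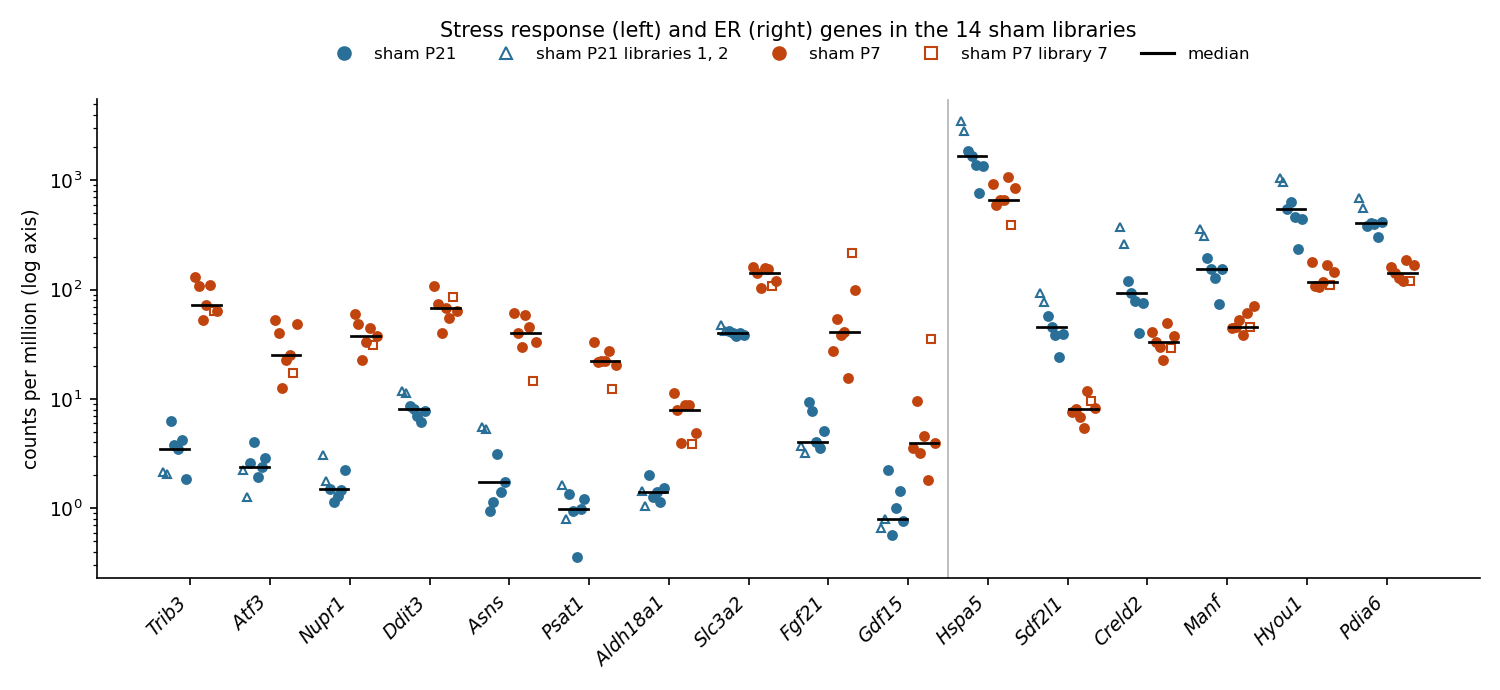
CPM of 16 genes in each of the 14 sham libraries on a log axis, with a line at each group's median; open triangles are sham P21 libraries 1 and 2 and the open square is sham P7 library 7. The groups are separate for Trib3, Atf3, Nupr1, Ddit3, Asns, Psat1, Aldh18a1, Slc3a2 and Fgf21, and sham P21 libraries 1 and 2 are the highest of their group for the ER genes on the right.

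Of 7 tested stress hormones and hormone receptors, Fgf21 and Gdf15 rose. Fgf21, a liver hormone known to be induced by protein restriction, was at 15.6, 41.3 and 218 CPM against 3.2, 4.05 and 9.45 (log2 3.74 ± 0.59, adjusted p = 4.65e-06). Its highest value was in sham P7 library 7, and without that library the log2 difference was 3.12 (adjusted p = 3.96e-05). Gdf15, a hormone that acts on the hindbrain to lower food intake, was at 1.8, 3.99 and 35.6 CPM against 0.572, 0.8 and 2.26, with overlap (log2 3.01 ± 0.53, adjusted p = 2.81e-05; 2.02 and 0.000909 without the same library). The fibroblast growth factor receptor Fgfr4 was at 28.7 to 50.9 CPM against 38 to 51.9 (log2 -0.18 ± 0.16, adjusted p = 0.416).

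Of 22 tested genes of amino acid and one-carbon synthesis 8 rose and 3 fell, with a median log2 fold change of 0.33. The 8 comprised Asns (asparagine), Psat1 and Psph (serine), Aldh18a1 and Pycr1 (proline), Mthfd2 and Aldh1l2 (the mitochondrial folate pathway) and Pck2, the mitochondrial PEP carboxykinase. Psat1 was at 12.3, 22.1 and 33.2 CPM against 0.361, 0.987 and 1.62 (log2 4.45 ± 0.46, adjusted p = 3.4e-10). Asns was at 14.5, 40.4 and 61 CPM against 0.936, 1.74 and 5.52 (log2 3.92 ± 0.59, adjusted p = 1.63e-06, and log2 4.57 without sham P21 libraries 1 and 2). Mthfd2 was at 7.5 to 15.8 CPM against 0.976 to 2.54 (log2 2.76 ± 0.37), and Aldh18a1 at 3.9 to 11.2 against 1.04 to 2 (log2 2.33 ± 0.35). These 4 genes did not overlap between the diets. Phgdh, the first enzyme of serine synthesis, stayed low in both groups (0.251 to 1.5 CPM against 0.0723 to 1.11, log2 0.85 ± 0.60, adjusted p = 0.305). The 3 genes that fell were the cytosolic folate enzymes Aldh1l1, Mthfd1 and Shmt1, of which 1 was called without sham P21 libraries 1 and 2, and Shmt1 was at 182 to 233 CPM against 231 to 318 (log2 -0.37 ± 0.14, adjusted p = 0.0426, 0.0539 without them and 0.083 without sham P7 library 7).

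Amino acid transporters moved both ways, with 7 of 31 higher, 7 lower and a median of -0.02, and 4 lower without sham P21 libraries 1 and 2 and sham P7 library 7. Slc3a2, the heavy chain that carries several amino acid exchangers to the cell surface, was at 104, 141 and 160 CPM against 37.6, 40.2 and 47.1 (log2 1.72 ± 0.14, adjusted p = 1.29e-13). Its light chain partner Slc7a7 rose (7.08 to 13.2 CPM against 2.54 to 4.44, log2 1.64 ± 0.31, adjusted p = 9.63e-05), as did the cationic amino acid carrier Slc7a1 (log2 1.69 ± 0.35). Slc7a5, the partner that imports leucine, had a log2 difference of 0.53 ± 0.23 (adjusted p = 0.0869, and 0.045 without sham P21 libraries 1 and 2). Members that fell included the lysosomal exporter Slc36a1 (22.2 to 38.7 CPM against 47.2 to 61.1, log2 -0.83 ± 0.14, adjusted p = 1.64e-05) and the mitochondrial aspartate carrier Slc25a13 (96.7 to 157 CPM against 169 to 296, log2 -0.72 ± 0.15, adjusted p = 0.000381).

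The cytosolic tRNA synthetases, which load amino acids onto tRNA, also divided, with 5 of 20 higher and 4 lower. Gars1 (glycine) was at 63.8 to 90.5 CPM against 38.9 to 50.5 (log2 0.79 ± 0.10, adjusted p = 4.86e-08) and Sars1 (serine) at 88.7 to 116 against 56.2 to 92.1 (log2 0.64 ± 0.10, adjusted p = 6.75e-06). Cars1, Eprs1 and Yars1 were the other members that rose, of which Yars1 lost its call without sham P21 libraries 1 and 2 (adjusted p = 0.128). Wars1 (tryptophan) and Qars1 (glutamine) fell, by 0.44 and 0.39 on the log2 scale, along with Hars1 and Kars1, and 2 of these 4 were called without sham P21 libraries 1 and 2. None of the 17 mitochondrial synthetases rose and Hars2 and Nars2 fell (edgeR, log2 -0.39 ± 0.08 and -0.40 ± 0.12, adjusted p = 0.000269 and 0.0116), while 4 fell without sham P21 libraries 1 and 2 and 4 without sham P7 library 7.

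**Figure D3:**
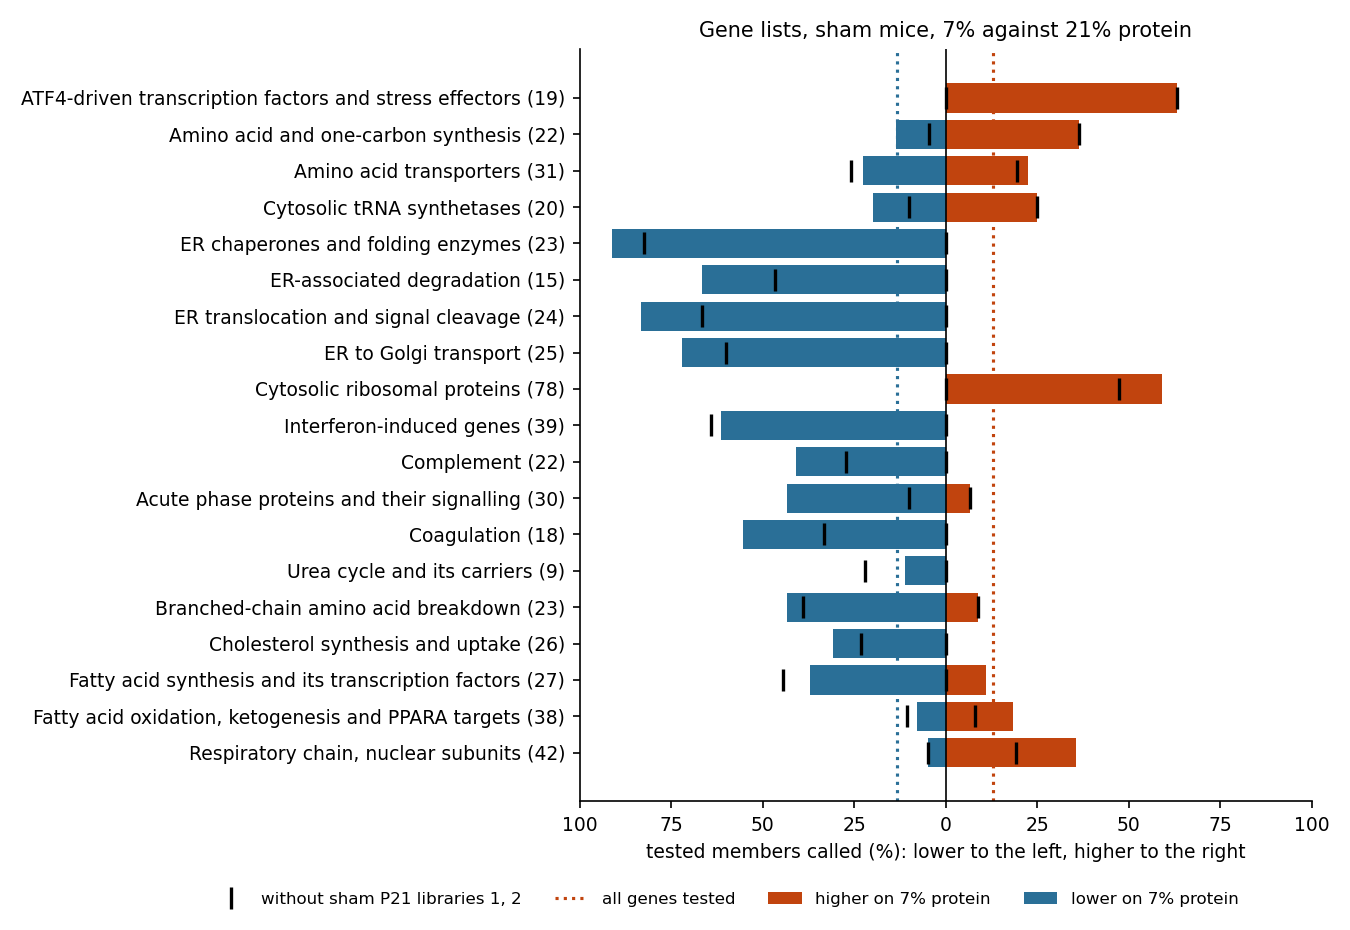
Percentage of tested members of each gene list called lower (left, blue) or higher (right, orange) on 7% protein, with the number tested in parentheses. Dotted lines mark the shares of all tested genes (13.4% lower and 13% higher) and black ticks the shares without sham P21 libraries 1 and 2; 91.3% of ER chaperones were lower and 63.2% of the ATF4-driven list higher.

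In the ER lists, which hold chaperones and genes of translocation, transport and degradation, more genes were lower than higher on 7% protein. Of 23 tested ER chaperones and folding enzymes 21 fell and 0 rose, with a median log2 fold change of -1.13. All sham P7 libraries lay below all sham P21 libraries for 15 of them, where 3.9% of all tested genes did. Sham P21 libraries 1 and 2, the acute phase libraries, held the highest levels of many of these chaperone genes. Without them 19 of 23 were lower and the median was -0.94, and without sham P7 library 7 as well 17 were lower.

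The promoters of Hspa5, Hsp90b1, Creld2 and Derl3 are shown because these ER genes fell and hold the ERSE, CCAAT and CCACG with 9 bases between them, in either orientation. Capitals mark both boxes, which read CGTGG and ATTGG on the other strand. The windows on GRCm38.p6, with sequences from RefSeq, are chr2:34771995-34772073 (plus strand) for Hspa5, chr10:86705503-86705686 (minus) for Hsp90b1, which has 2 motifs, chr15:88819490-88819568 (plus) for Creld2 and chr10:75893212-75893290 (plus) for Derl3.
Hspa5: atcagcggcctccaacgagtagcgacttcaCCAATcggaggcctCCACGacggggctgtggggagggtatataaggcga
Hsp90b1: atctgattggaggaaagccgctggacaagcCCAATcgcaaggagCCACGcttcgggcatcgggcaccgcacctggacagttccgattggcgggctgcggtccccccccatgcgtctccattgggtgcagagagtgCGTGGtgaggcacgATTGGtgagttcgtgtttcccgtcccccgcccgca
Creld2: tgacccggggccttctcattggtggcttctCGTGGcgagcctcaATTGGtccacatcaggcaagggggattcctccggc
Derl3: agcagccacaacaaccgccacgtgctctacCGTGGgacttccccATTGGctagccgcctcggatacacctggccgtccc
This motif is rare, in 35 of 27025 genes (0.13%). It was found in 12 of 1650 genes lower on 7% protein (0.727%), 2 of 1516 higher (0.132%) and 6 of 8532 not called (0.0703%). Those counts include the ER chaperone genes, of which 8 of the 20 with a promoter sequence held it.

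Hspa5, the main ER chaperone BiP, was at 391, 662 and 1066 CPM in sham P7 against 763, 1673 and 3490 in sham P21 (log2 -1.38 ± 0.28, adjusted p = 0.000274). The groups overlapped, and without sham P21 libraries 1 and 2 the log2 difference was -0.94 (adjusted p = 0.0131). Hyou1, a large chaperone that recharges BiP, was at 105, 119 and 180 CPM against 236, 547 and 1049, with no overlap. Pdia6, a disulfide isomerase, was at 119, 143 and 188 CPM against 304, 411 and 683 (log2 -1.62 ± 0.22, adjusted p = 1.91e-07). Sdf2l1, a cofactor of the BiP cycle, fell most among the chaperones, from a median of 45.3 to 8.03 CPM (log2 -2.70 ± 0.45, adjusted p = 1.21e-05). Manf, a secreted ER stress protein, was at 38.2 to 70.2 CPM against 74.7 to 360 (log2 -1.93 ± 0.33, adjusted p = 1.43e-05). Creld2 moved from -2.09 to -1.23 on the log2 scale when sham P21 libraries 1 and 2, at 374 and 259 CPM, were left out. The calls of the disulfide isomerase Pdia5 and the prolyl isomerase Ppib were lost (adjusted p = 0.318 and 0.193).

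The lists for the later steps of the secretory route were lower too. Of 24 genes for translocation into the ER and signal cleavage 20 fell (16 without sham P21 libraries 1 and 2) and 0 rose. Ostc, a subunit of the oligosaccharyltransferase, was at 14.4 to 31.1 CPM against 39.8 to 75.9 (log2 -1.37 ± 0.17, adjusted p = 4.83e-08), and the channel subunit Sec61a1 at 65.2 to 135 against 176 to 312 (log2 -1.34 ± 0.18, adjusted p = 1.5e-07). Of 25 ER to Golgi transport genes 18 fell (15 without those libraries), among them the COPII coat genes Sec24d (log2 -1.70 ± 0.22, adjusted p = 7e-08) and Sec23b (log2 -1.47 ± 0.20, adjusted p = 2.55e-07) and the cargo receptor Surf4 (log2 -0.89 ± 0.11, adjusted p = 7e-08).

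Genes of ER-associated degradation fell in 10 of 15 cases (7 without sham P21 libraries 1 and 2). Derl3, a membrane protein that helps unfolded proteins leave the ER, was at 0.826, 1.4 and 2.59 CPM against 11.3, 21.2 and 107, with no overlap. Library 1 held 107 CPM and library 2 held 59.5 CPM, and without both its log2 difference moved from -4.65 to -3.58 (adjusted p = 0.000342). Edem1, which selects misfolded glycoproteins, was at 63.1 to 87.6 CPM against 98.1 to 160 (log2 -0.90 ± 0.15, adjusted p = 1.13e-05), and Sel1l, the scaffold of the HRD1 ligase, at 72.1 to 127 against 110 to 231 (log2 -0.84 ± 0.16, adjusted p = 9.49e-05).

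Of 10 sensors and factors of the unfolded protein response 6 fell and 1, Ern1, rose (52.3 to 144 CPM against 49.3 to 80, log2 0.48 ± 0.18, adjusted p = 0.0442, and 0.0704 without sham P21 libraries 1 and 2). Creb3 fell from a median of 42.9 to 27.8 CPM (log2 -0.64 ± 0.11, adjusted p = 9.77e-06). Xbp1 was at 162 to 242 CPM against 209 to 351, and its call did not hold without those libraries (adjusted p = 0.0277 and 0.147). Atf6 was at 47.5 to 102 CPM against 49.8 to 99.4 (log2 -0.10 ± 0.15, adjusted p = 0.649). Gene-level counts do not tell spliced from unspliced Xbp1.

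**Figure D4:**
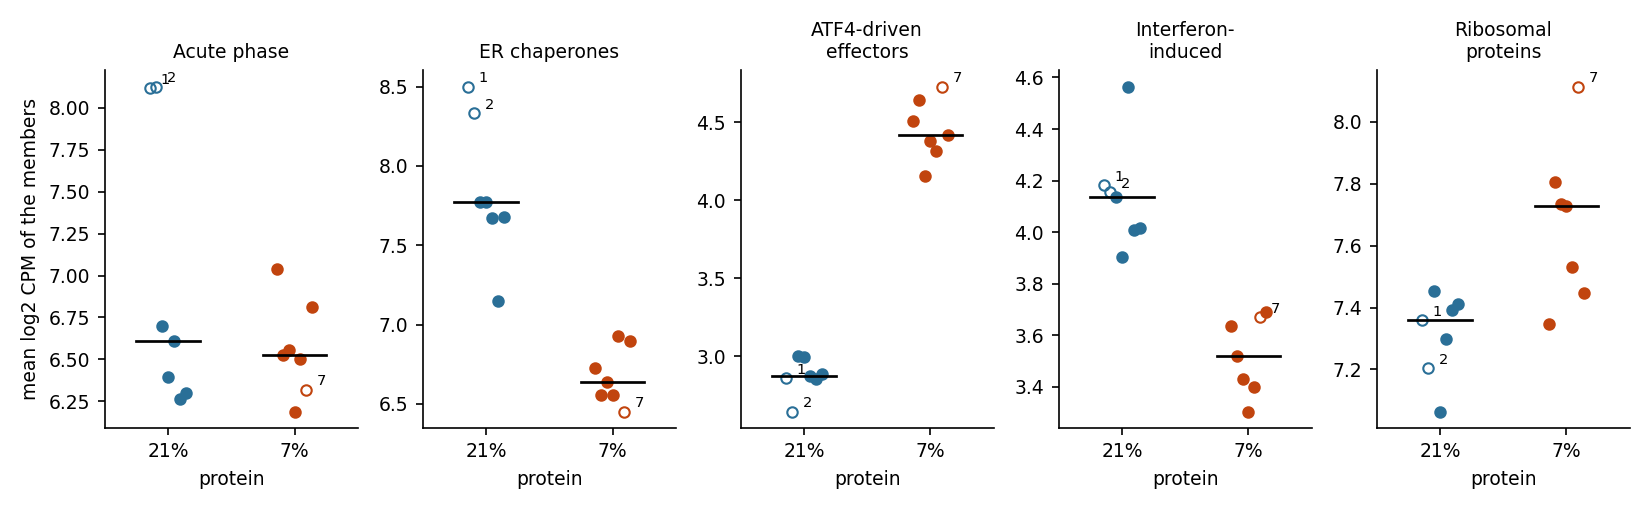
Mean log2 CPM of the members of 5 gene lists in each of the 14 sham libraries; open points are sham P21 libraries 1 and 2 and sham P7 library 7, and lines mark group medians. The diets are separate for ER chaperones, ATF4-driven effectors and interferon-induced genes, whereas they overlap for the acute phase list, where sham P21 libraries 1 and 2 lie above all others, and for ribosomal proteins.

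Cytosolic ribosomal protein genes were higher as a group. Of 78 tested genes 46 rose and 0 fell, with a median log2 fold change of 0.41. The count was 37 without sham P21 libraries 1 and 2, 30 without sham P7 library 7, which had the highest levels, and 29 without all 3. For 4 of the 78 genes all sham P7 libraries lay above all sham P21 libraries, where 3.47% of all tested genes did. Rpl12 was at 191, 281 and 364 CPM against 92.3, 126 and 154 (log2 1.11 ± 0.16, adjusted p = 4.57e-07), and Rpl10a at 169 to 225 against 97 to 147 (log2 0.61 ± 0.10, adjusted p = 3.9e-06). Rpl3 was at 304 to 437 CPM against 337 to 386 (log2 0.13 ± 0.08, adjusted p = 0.212). Ribosomal protein genes have many processed copies in the genome, and how reads were shared among them is not given here.

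Of 30 nucleolar genes of ribosome biogenesis 9 were higher and 3 lower. Nop56, part of the particle that methylates ribosomal RNA, was at 49.8 to 75.8 CPM against 29 to 47.1 (log2 0.82 ± 0.14, adjusted p = 2.28e-05), and Gnl3, a nucleolar GTPase, at 32.4 to 50.3 against 21.4 to 28.2 (log2 0.79 ± 0.13, adjusted p = 1.11e-05). Nuclear-encoded respiratory chain genes were higher in 15 of 42 cases and lower in 2. That count depended on the libraries: 8 were higher without sham P21 libraries 1 and 2, 9 without sham P7 library 7 and 3 without all 3. Atp5po, a subunit of ATP synthase, rose (136 to 248 CPM against 106 to 130, log2 0.69 ± 0.14, adjusted p = 0.00026) and Sdha, the succinate dehydrogenase flavoprotein, fell (199 to 372 against 412 to 506, log2 -0.64 ± 0.15, adjusted p = 0.00113).

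Genes for breaking down amino acids were lower more often than higher, with exceptions at named steps. Of 23 genes for branched-chain amino acid breakdown 10 fell and 2 rose (9 and 2 without sham P21 libraries 1 and 2), with a median of -0.31. Acad8, in valine breakdown, was at 30.7 to 43.3 CPM against 50.2 to 62.9 (log2 -0.54 ± 0.10, adjusted p = 5.34e-05). Dbt, the transacylase core of the branched-chain ketoacid dehydrogenase, was at 35.2 to 59.2 CPM against 65.1 to 89.1 (log2 -0.55 ± 0.14, adjusted p = 0.00244). Bckdk, the kinase that inhibits this complex, fell too (log2 -0.32 ± 0.09, adjusted p = 0.00718), although its groups overlapped and the call was lost without sham P21 libraries 1 and 2 (adjusted p = 0.106). Bckdhb rose (log2 0.35 ± 0.10, adjusted p = 0.00844), while its partner subunit Bckdha was at 96.3 to 289 CPM against 140 to 180 (adjusted p = 0.991).

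In aromatic amino acid breakdown 3 of 16 genes rose and 4 fell. Tat, which starts tyrosine breakdown, was at 1977, 2106 and 2762 CPM against 726, 915 and 1385 (log2 1.27 ± 0.19, adjusted p = 1.56e-06), with no overlap. Kyat1, a transaminase of the kynurenine route, rose (282 to 570 CPM against 130 to 177, log2 1.42 ± 0.21) while the related Kyat3 fell (64 to 115 against 116 to 210, log2 -1.11 ± 0.18). Tdo2, which opens the tryptophan ring, had a log2 difference of -0.39 ± 0.20 (adjusted p = 0.139, and 0.0407 without sham P21 libraries 1 and 2).

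For histidine, serine, glycine, threonine and lysine 6 of 20 genes fell and 1 rose, or 8 and 0 without sham P7 library 7. Gldc of the glycine cleavage system was at 42.2 to 95.6 CPM against 94.4 to 164 (log2 -0.94 ± 0.20, adjusted p = 0.0004) and Hal, the first enzyme of histidine breakdown, at 84.2 to 226 against 174 to 373 (log2 -0.82 ± 0.21, adjusted p = 0.00333). For arginine, proline and glutamine 4 of 14 fell, led by Aldh4a1 of proline breakdown (187 to 253 CPM against 297 to 456, log2 -0.77 ± 0.13, adjusted p = 1.8e-05). Among 22 genes of sulfur amino acid metabolism 5 rose and 3 fell, with a median of 0.02, and 3 rose and 2 fell without sham P21 libraries 1 and 2. Those that rose included Cth, which makes cysteine (352 to 618 CPM against 241 to 338, log2 0.71 ± 0.16, adjusted p = 0.000755), and Bhmt, which remethylates homocysteine (4884 to 10330 against 1515 to 7157, log2 0.91 ± 0.27, adjusted p = 0.00969).

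The urea cycle, which disposes of nitrogen from protein, had 1 called gene of 9, the carrier Slc25a13, which fell. That is 11.1% lower, against 13.4% of all tested genes. Cps1, the entry enzyme, was at 788 to 2366 CPM against 1896 to 2532, with a log2 difference of -0.48 ± 0.24 (adjusted p = 0.132). Otc was at 172 to 312 CPM against 287 to 353 (log2 -0.38 ± 0.16, adjusted p = 0.0665), Ass1 had a log2 difference of 0.23 ± 0.16 (adjusted p = 0.302) and Arg1 one of -0.02 ± 0.14 (adjusted p = 0.947). The ornithine carrier Slc25a15 was called without sham P21 libraries 1 and 2 (log2 -0.46, adjusted p = 0.0381) but not with them (adjusted p = 0.054).

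With all libraries 13 of 30 acute phase genes were lower and 2 higher on 7% protein, and without sham P21 libraries 1 and 2 the counts were 3 and 2, with a median log2 fold change that moved from -0.59 to 0.00. Saa1, a plasma protein that surges in inflammation, was at 8.63 to 39.9 CPM in sham P7, at 2164 and 2801 in sham P21 libraries 1 and 2 and had a sham P21 median of 22.5. Its log2 difference went from -4.99 ± 1.29 (edgeR adjusted p = 0.00298) to -0.39 (adjusted p = 0.826). The 3 genes lower in both fits were Serpina3m (144 to 312 CPM against 279 to 567, log2 -0.87), the interleukin-6 receptor Il6ra (log2 -0.69) and its transducer Stat3 (log2 -0.65). Apcs, serum amyloid P, went the other way (125 to 437 CPM against 66.5 to 140, log2 1.68 ± 0.47, adjusted p = 0.00617), as did the interleukin-1 antagonist Il1rn (log2 1.47 ± 0.51, adjusted p = 0.0274).

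Complement and coagulation genes fell with all libraries and, in smaller number, without these. Of 22 complement genes 9 fell and 0 rose, and 6 without sham P21 libraries 1 and 2. C9, a pore-forming subunit, was at 67.7, 109 and 130 CPM against 164, 240 and 340 (log2 -1.26 ± 0.20, adjusted p = 4.41e-06), and the lectin pathway receptor Mbl2 at 191 to 253 against 293 to 421 (log2 -0.73 ± 0.16, adjusted p = 0.000597). Of 18 coagulation genes 10 fell, and 6 without sham P21 libraries 1 and 2. Without sham P7 library 7 as well 2 of 18 fell, a share near the 10.6% of all tested genes lower in that fit. Serpind1, heparin cofactor, was at 312 to 493 CPM against 594 to 674 (log2 -0.63 ± 0.13, adjusted p = 0.000164). Albumin, the main secreted protein, was at 56010 to 79290 CPM for Alb against 48020 to 67320 (log2 0.23 ± 0.15, adjusted p = 0.254). Over 30 plasma protein genes 4 rose (13.3%) and 3 fell (10%), against 13% and 13.4% of all tested genes. Without sham P21 libraries 1 and 2 the counts were 4 and 1.

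Interferon-induced genes were lower in both fits. Of 39 tested genes 24 fell and 0 rose, 25 without sham P21 libraries 1 and 2 and 26 without sham P7 library 7, with a median of -0.73. Oasl1, an antiviral synthetase-like protein, was at 8.28, 8.61 and 13.1 CPM against 26.3, 36.8 and 39.4 (log2 -1.80 ± 0.25, adjusted p = 5.25e-07). Ifit1, which blocks translation of viral RNA, was at 5.28 to 8.78 CPM against 16.8 to 37 (log2 -1.68 ± 0.29, adjusted p = 2.28e-05). The RNA sensors Ifih1 (18.4 to 26.4 CPM against 33.1 to 52.1, log2 -0.87 ± 0.12, adjusted p = 3.63e-07) and Dhx58 (log2 -1.11 ± 0.17) were also separate between diets. Ifi203, of the family of interferon-inducible DNA sensors, rose (log2 0.52 ± 0.16, adjusted p = 0.014), but the groups overlapped and the call was lost without sham P21 libraries 1 and 2 (adjusted p = 0.0868). It lies outside that list and is named because of its difference from SG mice.

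Fatty acid synthesis genes fell at the level of enzymes and of their regulator. Of 27 tested genes 10 fell and 3 rose, and 12 fell and 0 rose without sham P21 libraries 1 and 2. Acly, which supplies cytosolic acetyl-CoA, was at 87.1, 120 and 155 CPM against 194, 326 and 439 (log2 -1.42 ± 0.32, adjusted p = 0.000913), with no overlap. Fasn, the fatty acid synthase, was at 151 to 569 CPM against 373 to 1592 (log2 -1.56 ± 0.39, adjusted p = 0.00221), and Scd1, the stearoyl-CoA desaturase, at 663 to 2325 against 2182 to 5609 (log2 -1.33 ± 0.33, adjusted p = 0.00208). Srebf1, which encodes SREBP1c, was at 45.4 to 205 CPM against 153 to 260 (log2 -1.14 ± 0.26, adjusted p = 0.00106). Acaca, the carboxylase before Fasn, had a log2 difference of -0.22 ± 0.18 (adjusted p = 0.39), whereas its mitochondrial relative Acacb fell (log2 -1.29 ± 0.29, adjusted p = 0.000892).

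Cholesterol synthesis and uptake genes fell in 8 of 26 cases (6 without sham P21 libraries 1 and 2) and rose in 0. Among 38 genes of fatty acid oxidation and PPARA targets 7 rose and 3 fell, and 3 rose and 4 fell without sham P21 libraries 1 and 2. Cyp4a31, a fatty acid hydroxylase, was at 73.5, 126 and 171 CPM against 16.1, 26.6 and 41.6 (log2 2.19 ± 0.28, adjusted p = 7.82e-08), although members of this family are near-identical and reads may be shared. Ppara itself fell (6.32 to 30.7 CPM against 17.6 to 66.9, log2 -1.36 ± 0.34, adjusted p = 0.00196), as did its coactivator Ppargc1a (1.96 to 4.12 against 5.53 to 8.52, log2 -1.22 ± 0.19, adjusted p = 2.54e-06). Cpt1a, which admits fatty acids to mitochondria, had a log2 difference of 0.26 ± 0.17 (adjusted p = 0.279).

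Some growth and cell stress genes of other lists changed as well. Igfbp1, a fasting-induced binding protein that holds IGF1, was at 15.9, 52.6 and 85.1 CPM against 1.6, 2.86 and 8.05 (log2 3.60 ± 0.70, adjusted p = 0.000116). Igfbp2 rose (491 to 1175 CPM against 199 to 382, log2 1.2 ± 0.32, adjusted p = 0.00432), and the growth hormone receptor Ghr fell (244 to 349 against 389 to 580, log2 -0.61 ± 0.14, adjusted p = 0.00127). In this list of 16 genes 2 rose (12.5%) and 3 fell (18.75%), against 13% and 13.4% of all tested genes. The lower count was 4 without sham P21 libraries 1 and 2 and 5 without sham P7 library 7. Cdkn1a, the cell cycle inhibitor p21, was at 15.2, 29.8 and 63.8 CPM against 1.68, 3.93 and 8.09 (log2 2.80 ± 0.49, adjusted p = 2.44e-05), and Trp53, p53 itself, at 34.6 to 45.6 against 19.3 to 33 (log2 0.59 ± 0.13, adjusted p = 0.000532). Of 18 p53 targets 5 rose and 1 fell, and the p53 inhibitor Mdm2 had a log2 difference of 0 ± 0.08.

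Of 21 immediate early genes 8 rose and 0 fell, but 4 rose without sham P21 libraries 1 and 2 and sham P7 library 7. Gadd45a, a DNA repair and stress protein, was at 26.5, 49.3 and 98 CPM against 5.46, 6.9 and 10.3 (log2 2.87 ± 0.31, adjusted p = 1.8e-09). Fos was at 0.21 to 1.29 CPM against 0.445 to 1.26 (log2 0.11 ± 0.44, adjusted p = 0.887). Among 22 clock genes 6 rose and 5 fell, against 3 and 6 without sham P21 libraries 1 and 2 and 3 and 5 without sham P7 library 7. Nr1d1, the repressor REV-ERBα, rose (89.4 to 154 CPM against 35.5 to 93, log2 0.90 ± 0.20, adjusted p = 0.000614), and Bmal1, which it represses, was at 2.07 to 13.7 against 2.16 to 6.07 (log2 0.63 ± 0.32, adjusted p = 0.133). Alas1, the rate-limiting enzyme of haem synthesis, fell (102, 204 and 410 CPM against 381, 768 and 1334, log2 -1.82 ± 0.34, adjusted p = 7.23e-05), and so did Fech, its last enzyme (log2 -0.64 ± 0.12, adjusted p = 9.54e-05).

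Markers of liver cell types were counted in the same way. In bulk liver, fewer cells of a type and less RNA per cell cannot be told apart. Hepatocyte markers were abundant in all libraries, with 1 of 10 higher (10%) and 2 lower (20%), against 13% and 13.4% of all tested genes. Without sham P21 libraries 1 and 2 the counts were 0 and 1. Periportal hepatocyte markers fell in 9 of 20 cases and rose in 0, and their summed level was 6106 to 10240 CPM in sham P7 and 10030 to 11920 in sham P21. Aldh1b1, a mitochondrial aldehyde dehydrogenase of the periportal list, was at 14.6 to 21 CPM against 46.8 to 80 (log2 -1.68 ± 0.26, adjusted p = 2.54e-06) and Pigr, which carries IgA into bile, at 536 to 1072 against 1302 to 2137 (log2 -1.15 ± 0.20, adjusted p = 3.22e-05). Several members of that list are amino acid breakdown genes described above (Gldc, Hal). Of 21 pericentral markers 2 rose (9.52%) and 0 fell, or 3 and 1 without sham P21 libraries 1 and 2.

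Krt23 belongs to the cholangiocyte list, of which 4 of 12 rose (among them Krt23, Spp1 and Ddit4l). Like the other lists, this list was chosen with earlier results of these data known, so the count is not independent of them. Without sham P21 libraries 1 and 2 the count was 3, and Ddit4l was not called (adjusted p = 0.0544). Their summed level was 86.7 to 302 CPM in sham P7 and 56.8 to 82.4 in sham P21, and the defining duct markers Krt7, Krt19, Epcam and Sox9 were not called. Lipid-associated macrophage markers rose in 3 of 12 cases (Cd9, Cd63 and Spp1), with sums of 110 to 341 CPM against 84 to 132. Trem2, Gpnmb, Itgax and Mmp12 of this list were not called. Spp1 is counted in both this list and the cholangiocyte list, and it lost its call by limma-voom and without sham P7 library 3. Cd63 was at 11.6 to 22.2 CPM against 4.08 to 6.78 (log2 1.58 ± 0.38, adjusted p = 0.00134). Of 31 stellate cell and matrix genes 4 rose (12.9%, near the 13% of all tested genes), and 2 rose without sham P21 libraries 1 and 2 or without sham P7 library 7. The 4 included the proteoglycan Bgn (130 to 237 CPM against 87.3 to 120, log2 0.69 ± 0.18, adjusted p = 0.00367). For Kupffer cells 0 of 14 markers were called by edgeR, with sums of 192 to 552 CPM against 290 to 530, and for monocytes and neutrophils 0 of 15. DESeq2 also called 0 in both lists, and 0 had an unadjusted p under 0.05 by edgeR. B and plasma cell sums were 28.3 to 271 CPM in sham P7 (median 51.7) and 27.4 to 738 in sham P21 (median 41.2), and 2 of 12 markers fell, or 4 without sham P21 libraries 1 and 2. The part of these cells in the results above was not tested.

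The same diet contrast was measured in SG mice, with 7 SG P7 and 6 SG P21 libraries that are not shared with the sham groups and held 6993848 to 33356000 counts. Some of these SG libraries also carried an acute phase. The mean log2 CPM of Saa1, Saa2, Lcn2 and Orm2 was 3.87 to 12.1 in SG P21 and 3.41 to 9.44 in SG P7. The part of this acute phase in the SG values was not tested. In SG mice 5.51% of tested genes were higher and 4.2% lower on 7% protein, and 5.35% and 4.82% without the library labelled SG P7 replicate 7. With that library included, 435 genes were higher and 408 lower in both surgeries, and 14 were called in opposite directions. Trib3 had a log2 difference of 4.63 in sham and 4.12 in SG mice (4.33 without that library). Of the 19 ATF4-driven genes 10 rose in SG mice with and without it. Of the 23 ER chaperones 12 fell in SG mice (median -0.72), and 19 without the library (median -0.90), against 21 in sham mice (median -1.13). Ribosomal protein genes rose in 12 of 78 cases in SG mice, or 14 without it, against 46 in sham mice.

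Whether the diet contrast differed between surgeries was tested directly. With all libraries 0.267% of genes had a higher contrast in sham than in SG mice and 1.03% a lower one, 43 and 166 genes. The number rested on single libraries: without the library labelled SG P7 replicate 7 the counts were 7 and 32, all of which were among the 43 and 166, and without sham P21 libraries 1 and 2 they were 24 and 94 (0.149% and 0.584%). Without SG P21 library 5, which had the highest acute phase level of the SG P7 and SG P21 libraries (12.1), they were 58 and 515. By edgeR 0 of the ATF4-driven genes passed this test, with or without the library labelled SG P7 replicate 7, while 4 of 19 had an unadjusted p under 0.05, all higher in sham mice, and DESeq2 called 1. Of the 23 ER chaperones 0 passed by edgeR, 8 had an unadjusted p under 0.05, all lower in sham mice, and DESeq2 called 1. Of the 78 ribosomal protein genes 0 passed by edgeR, 17 were higher and 1 lower at an unadjusted p under 0.05, and DESeq2 called 2 higher and 1 lower. As a scale for these counts, 2698 of all 16087 tested genes had an unadjusted p under 0.05 by edgeR in either direction. DESeq2 called 80 of all tested genes higher and 434 lower. For Hyou1 the difference was -1.43 ± 0.49 (adjusted p = 0.115), and for Atf3 1.81 ± 0.57 (adjusted p = 0.0852).

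Of the genes named here, Bckdk, Igfbp7 and Ifi203 passed the test of the difference with and without the library labelled SG P7 replicate 7. Bckdk fell in sham mice and rose in SG mice (log2 -0.32 and 0.38), a difference of -0.70 ± 0.13 (adjusted p = 0.00925, and 0.0325 without the library labelled SG P7 replicate 7). Its call in sham mice was lost without sham P21 libraries 1 and 2. Igfbp7, a secreted IGF-binding protein of vessels and matrix, was at 55.8, 75.5 and 101 CPM in sham P7 against 36.8, 39.7 and 47.9 in sham P21, with no overlap (log2 0.88), and had a log2 difference of -0.31 in SG mice. The difference between these was 1.19 ± 0.27 (adjusted p = 0.0178, and 0.0477 without that library). Ifi203 had a log2 difference of 0.52 in sham mice (0.41 and not called without sham P21 libraries 1 and 2) and -0.56 in SG mice, and the difference was 1.08 ± 0.23 (adjusted p = 0.0142, and 0.0423). The SG log2 values of these genes include the library labelled SG P7 replicate 7. The ER genes Sec61a1 and Sec24d and the mitochondrial carbonic anhydrase gene Car5a passed with all libraries (adjusted p = 0.0467, 0.0475 and 0.028) but not without it (adjusted p = 0.155, 0.174 and 0.102).

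**Figure D5:**
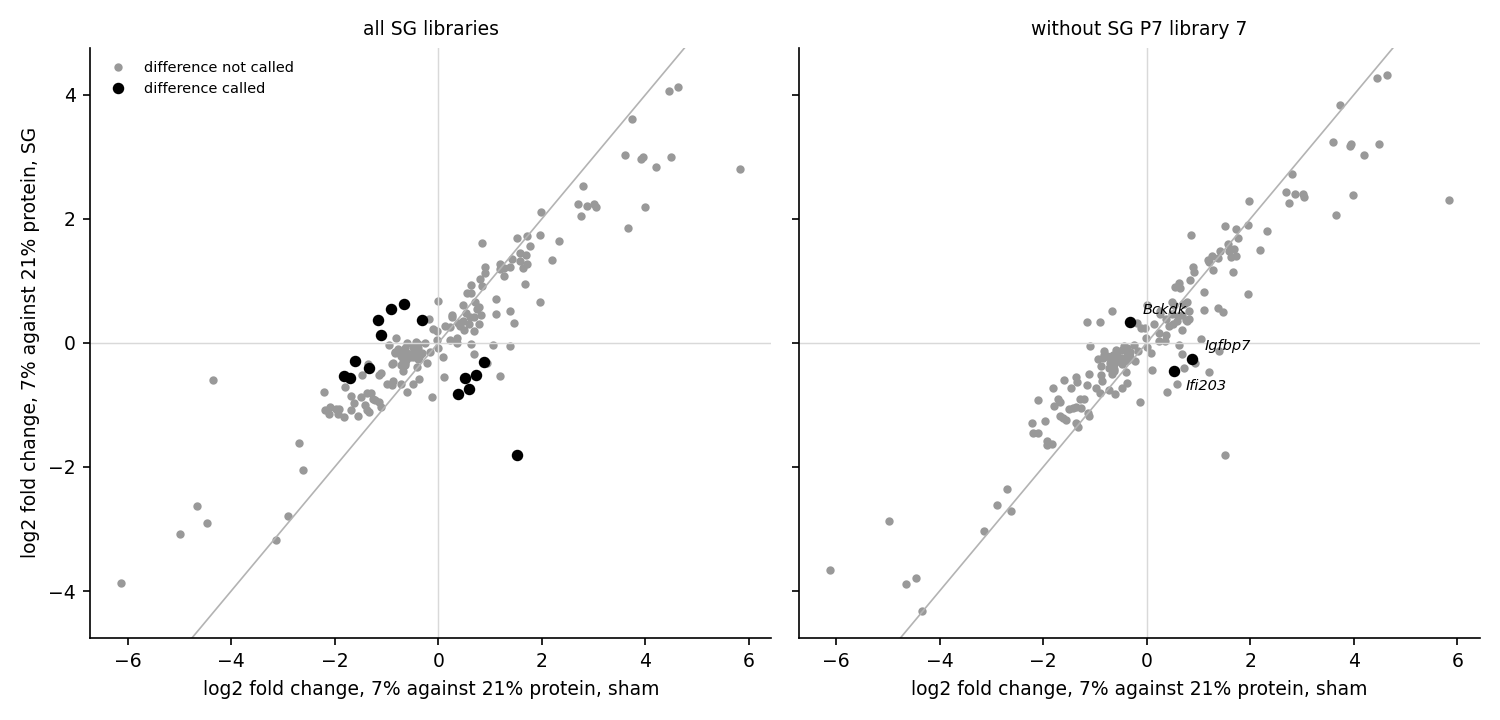
Log2 fold change on 7% against 21% protein in sham mice (horizontal) and SG mice (vertical) for the genes named in the text except Vmn2r3 and Pde2a, with all SG libraries (left) and without the library labelled SG P7 replicate 7 (right). Black points passed the test of the difference between surgeries; the diagonal marks equal change, and on the right Bckdk, Igfbp7 and Ifi203 are labelled.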

How the data were processed

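Liver RNA of each mouse was enriched for poly(A) RNA and sequenced in pairs as a stranded library, per the labels' protocols. The authors deposited a table of expected counts per gene for 57 libraries, named as an RSEM gene table. Not given in the sources used here is the aligner. R 4.4.1, edgeR, limma and build GRCm39 stand in the submitters' processing notes. Of the values 96.7% were whole, and all were rounded to whole numbers.

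Genes were kept with filterByExpr (16087 of 56884), scaled with TMM and fitted with edgeR 4.0.16's quasi-likelihood test in R 4.3.3 on 56 libraries in 9 groups, with 47 residual degrees of freedom and a biological coefficient of variation of 28.2%. The contrast was the mean of sham P7 minus the mean of sham P21, two-sided, adjusted by Benjamini-Hochberg over all genes tested and called at 0.05. Log2 fold changes carry standard errors (SE), and CPM values are counts scaled to 1000000 per TMM-adjusted library. Within the 2 sham groups no 2 libraries agreed within sampling noise (42 pairs, chi-square at least 18.3 per degree of freedom). Sham P7 libraries bear numbers 2 to 8; sample 1 was not analysed here. On simulated counts the fit was tested for recovery of known changes.

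Members and gene lists were chosen with earlier results of these data known. Named genes are the 12 highest and 12 lowest log2 fold changes called with and without sham P21 replicates 1 and 2, having a mean log2 CPM of 1 or more, and a symbol that is not predicted, a pseudogene or an immune receptor segment. For each list they also include up to 5 members of lowest adjusted p and those needed for their role, and for the difference from SG mice the 6 highest and 6 lowest. Some genes are not reported here. Promoter sequences came from RefSeq (GRCm38.p6). Alternatives were RLE size factors, no filter, DESeq2 1.42.0, limma-voom (limma 3.58.1), the compared groups alone, an acute phase covariate and leaving out libraries.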

Additional observations from a re-analysis of the deposited data

Results flagged for a closer look

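In each sham group the highest or lowest library of each named gene was set against the others by Dixon's gap ratio of log2 CPM at the 95% level for 7 samples, a criterion that chance meets in about 1 in 20 groups. It was met in 17 of 367 groups of 7 libraries (4.63%), a share near that. Sham P7 library 7 met it in 8 genes, more than any other sham library. It was highest for Cebpb (24.85 CPM), Igfbp2 (1175 CPM) and Dhx58 (15.52 CPM), and lowest for Slc25a13 (96.69 CPM), Apcs (124.8 CPM), Ostc (14.45 CPM), Gnl3 (32.43 CPM) and Rpl3 (303.9 CPM). In the same diet, library 2 was highest for Stat3 (119.7 CPM) and lowest for Ppib (132.6 CPM), and library 3 was highest for Krt19 (5.066 CPM). In sham P21, library 1 was lowest for Nars2 (11.28 CPM) and library 2 for Krt7 (0.2401 CPM). Library 3 was lowest for Acacb (26.31 CPM), library 5 was highest for Ifit1 (37.01 CPM), and library 6 was highest for Sulf2 (17.01 CPM) and lowest for Kyat3 (116.5 CPM).

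With all libraries, these named genes passed edgeR's test of the difference in the diet contrast between sham and SG mice, but most of them not with every library left out in turn. The difference, sham minus SG on the log2 scale, was 3.325 for Cib3, 1.325 for Osmr, 1.237 for Zfp708, 1.216 for Zfp14, 1.192 for Igfbp7 and 1.077 for Ifi203. It was -1.522 for Tnfrsf14, -1.453 for Cmip, -1.305 for Car5a, -1.301 for Fbxo21, -1.284 for Arfgap3, -1.238 for Sec14l4, -1.131 for Sec24d, -0.934 for Sec61a1 and -0.701 for Bckdk. Of the 27 fits that left out 1 library, Igfbp7, Ifi203 and Bckdk were called in 27, Zfp14 in 26, Car5a in 23, Fbxo21 in 20, Cib3 and Cmip in 19, Arfgap3 in 17, Sec24d in 16, Tnfrsf14 in 15, Sec61a1 and Sec14l4 in 14, Zfp708 in 7 and Osmr in 5.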

How the results depend on the processing

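The diet contrast in sham mice kept its counts within 1.5 times of 2087 higher and 2149 lower under every alternative run, and leaving out 1 library gave 1447 to 2130 higher and 1856 to 2646 lower. Lcn2, which was lower in sham P7, reversed to a log2 fold change of 1.49 with the acute phase covariate, which its own level enters; no other of 184 named genes reversed. The 43 higher and 166 lower genes of the sham minus SG difference were less stable. Leaving out 1 library gave 6 (without SG P21 library 3) to 107 (without sham P7 library 7 or SG P7 library 6) higher and 32 (without SG P7 library 7) to 643 (without sham P7 library 2) lower; each single library except SG P7 2, 4 and 5 moved at least 1 of these counts by over 1.5 times. Leaving out single SG libraries was an alternative chosen after seeing the data. Higher genes numbered 24 without sham P21 libraries 1 and 2, 8 with no filter, 80 by DESeq2 and 65 with the covariate. Lower genes numbered 94, 83 and 434 under the first 3 of these and 96 with the compared groups alone. Without sham P21 libraries 1 and 2 and sham P7 library 7, also chosen after seeing the data, they were 107 and 361. The diet contrast in SG mice called 536 to 1052 higher and 287 to 775 lower with 1 library left out, the lowest without SG P21 library 3 and SG P7 library 1, and 400 lower with no filter. The cause was not tested in any of these. No paired analysis was possible because replicate numbers were given in accession order and only name the samples. Depth limits low genes, for which a detection limit was not tested.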

Other observations

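Genes of protein disposal and iron handling, not described above, also differed between the diets. Ctsl, the lysosomal protease cathepsin L, was at 764, 1720 and 2193 CPM (lowest, median, highest) in sham P7 against 389, 471 and 590 in sham P21 (log2 1.72 ± 0.18, edgeR adjusted p = 4.36e-10). Sqstm1, the autophagy receptor p62, was at 644 to 1102 CPM against 352 to 424 (log2 1.19 ± 0.15, adjusted p = 9.94e-08). Neither overlapped between the diets, and these were the 2 genes that rose in a list of 30 autophagy and lysosome genes of which 10 fell. Those that fell included the lysosomal membrane protein Lamp1 (303 to 474 CPM against 551 to 641, log2 -0.58 ± 0.11, adjusted p = 4.74e-05) and the autophagy kinase Ulk2 (log2 -0.69 ± 0.14, adjusted p = 0.000166). Of 32 proteasome subunits 8 rose and 2 fell, or 7 and 1 without sham P21 libraries 1 and 2. Without sham P7 library 7 as well 4 rose and 0 fell.

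Among 19 iron genes 4 rose and 6 fell. Hfe, an upstream regulator of hepcidin, was at 45.9 to 64.1 CPM against 36.3 to 45.7 (log2 0.42 ± 0.07, adjusted p = 5.93e-06), and Hjv, a BMP co-receptor, rose by 0.51 ± 0.13 on the log2 scale. Id1, a BMP target, rose (log2 1.96 ± 0.39, adjusted p = 0.000183, and 1.43 without sham P7 library 7, which held the highest level, 31.9 CPM). Inhbb, which encodes an activin subunit, was at 1.83 to 2.89 CPM against 0.625 to 1.2 (log2 1.38 ± 0.35, adjusted p = 0.00278). In bile acid metabolism 1 of 25 genes rose (4%) and 4 fell (16%), against 13% and 13.4% of all tested genes. The phospholipid exporter Abcb4 rose (log2 0.63 ± 0.16, adjusted p = 0.00298), the reductase Akr1d1 fell (60.1 to 122 CPM against 138 to 247, log2 -0.98 ± 0.21, adjusted p = 0.000482) and Cyp7a1, the rate-limiting enzyme, was at 94 to 253 against 80.7 to 315 (log2 0.08 ± 0.40, adjusted p = 0.903).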
